A study of Mus musculus with 15 samples.

Results

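The response of embryonic mouse pancreas to JTE013, an antagonist of the sphingosine-1-phosphate receptor S1pr2, was set against the response to an S1pr2 null genotype. The comparison used 12 of the 15 RNA-Seq libraries of the series, chosen by their labels, in 4 groups of 3. The genotype arm compared pancreata labelled S1pr2 null with wild-type (wt) pancreata, both taken fresh at 14.5 days post coitum (dpc). The JTE arm compared wild-type 14.5 dpc dorsal buds kept for 2 days at an air–liquid interface (ALI) with 15 μM JTE013 (JTE) with buds kept for the same time in normal medium (control). The interaction is the log2 fold change of the JTE arm minus that of the genotype arm. Every sample is labelled with the strain C57/Bl6J. The null line carries a Neo cassette in exon 1 of S1pr2 constitutively, whereas the antagonist acted only during culture on buds with intact S1pr2. Each library was a pool of up to 3 pancreata or explants. The agent, the allele, culture, the part of the organ and the time of exposure change together between the arms, and their parts in the interaction cannot be told apart. The arms share no library.

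Sphingosine-1-phosphate is a lipid made inside cells by sphingosine kinases and released to act on a family of G protein-coupled receptors, of which S1pr2 is a member. At this age the pancreatic epithelium gives rise to acinar cells, which make digestive enzymes, to duct cells, and to endocrine cells, which pass through a stage marked by Neurog3 and then make hormones such as insulin and glucagon. A mesenchyme with blood vessels and macrophages surrounds it. A further programme that recurs below is the integrated stress response, in which phosphorylation of a translation factor favours translation of the transcription factor ATF4, which then raises genes of amino acid uptake, amino acid synthesis and tRNA charging.

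The 12 libraries held 12015589 to 13828737 reads assigned to genes, and 16122 genes carried enough reads to be tested. Normalised counts are read counts divided by the relative effective library size, and a gene was called at an edgeR adjusted p below 0.05. S1pr2 itself (chromosome 9, 20965952 to 20976793 in mm10) was higher, not lower, in the libraries labelled S1pr2 null, with 1508, 1305 and 1399 normalised counts against 798, 788 and 788 in wt. Counts pool all exons of a gene, so this level is no check of the insertion in exon 1, and each direction given for the libraries labelled S1pr2 null rests on that label. In culture S1pr2 stood at 837, 823 and 877 in control and 796, 875 and 940.1 in JTE, and these cultured groups overlapped. The libraries control 3 and JTE 3 stood apart from their groups in many genes, and wt 2 was the highest wt library in 28 of 35 acinar enzyme and granule genes. In bulk libraries fewer cells of a type and less RNA per cell cannot be told apart.

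More genes were called in the JTE arm than in the genotype arm. In the JTE arm 4227 genes rose (26.2% of those tested) and 4257 fell (26.4%), and in the genotype arm 2113 rose (13.1%) and 2216 fell (13.7%). These shares of all genes tested are the background for the counts of each gene list below. The response differed between the arms for 7047 genes. Of these, 3529 (21.9%) had the higher log2 fold change in the JTE arm and 3518 (21.8%) the lower. Among genes called in an arm, the median size of the log2 fold change was 0.473 in the JTE arm and 0.394 in the genotype arm. Across the 16122 genes the log2 fold changes of the arms had a Spearman coefficient of 0.061 and a Pearson coefficient of 0.129, a description across genes of the same 12 libraries.

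Genes called in both arms were divided between the same and opposite directions. The arms moved 1360 genes the same way, here called shared, of which 577 rose (3.58%) and 783 fell (4.86%). Shared genes were 16.0% of the calls of the JTE arm and 31.4% of those of the genotype arm. The arms moved 1133 genes in opposite directions, 591 of them higher with JTE (3.67%) and 542 lower with JTE (3.36%). Opposite genes were 13.4% and 26.2% of the calls of the same arms. Among all genes tested, 26.2% rose and 26.4% fell in the JTE arm, and 13.1% rose and 13.7% fell in the genotype arm. The opposite shares thus lay near those of all genes and the shared ones a little above, and the overlap was not tested. A further 4093 genes were called in the JTE arm and in the interaction but not in the genotype arm, here called JTE-specific, with 2099 higher (13.0%) and 1994 lower (12.4%). The mirror class, genotype-specific, held 1129 genes, with 595 higher (3.69%) and 534 lower (3.31%). Without the library wt 2 the genotype arm had 2849 calls and 746 genes were opposite, of which 721 were among the 1133. Without both control 3 and JTE 3, chosen after the data were seen, the genotype arm had 5340 calls, 1379 genes were opposite, 1514 shared, 3481 JTE-specific and 1395 genotype-specific.

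**Figure D1:**
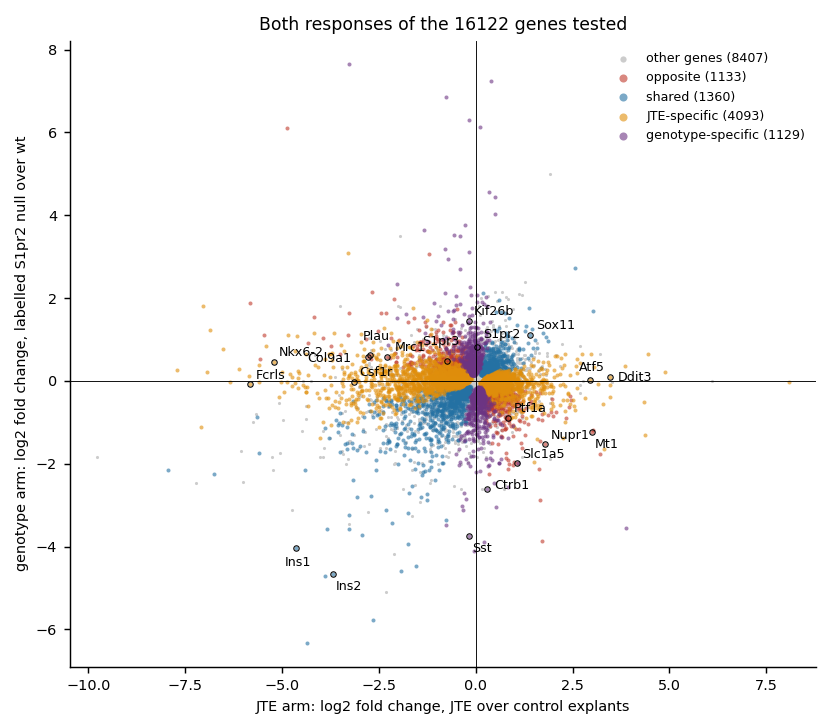
Each point is a gene, with its log2 fold change of JTE over control explants on the x axis and of libraries labelled S1pr2 null over wt on the y axis, coloured by class. Mt1 and Nupr1 lie to the lower right among the opposite genes, Ins1 and Ins2 in the lower left among the shared genes, Atf5 and Nkx6-2 near the horizontal line and Sst near the vertical line.

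Among protein-coding genes with a mean above 100 normalised counts in a group of each arm and no overlap in either arm, the opposite genes with the largest interaction that were higher with JTE were Mt1 and Mt2. The leading genes of each class given below were taken under the same limits of level and overlap, the latter in the arms where the class was called. Mt1 and Mt2 encode metallothioneins, small zinc-binding proteins. They were followed by Nupr1, a stress-induced nuclear protein, Reep6, a membrane-shaping protein, and Slc1a5, a glutamine transporter. Mt1 (chromosome 8, 94179089 to 94180325 in mm10) held 1902, 3010.5 and 2533 normalised counts in wt and 1099.8, 929 and 1143 in the libraries labelled S1pr2 null. The same gene held 2108, 2457 and 2195 in control and 17761, 17456 and 18613 in JTE. JTE libraries were thus far above all others, and the libraries labelled S1pr2 null were below all wt libraries. The log2 fold change of Mt1 was 2.99 ± 0.13 (SE) in the JTE arm and −1.23 ± 0.13 in the genotype arm, and the interaction was 4.22 ± 0.18 (edgeR adjusted p = 2.3e-09). Mt2, its neighbour on chromosome 8, held 2153, 3269.9 and 2568 in wt, 1259, 1070.5 and 1182 in S1pr2 null, 1860.2, 2322 and 1968 in control and 16191, 15828 and 18209 in JTE. Its interaction was 4.22 ± 0.18 (edgeR adjusted p = 2.3e-09).

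Both metallothionein promoters are shown because these genes led the opposite genes that were higher with JTE. The windows run from 250 bases before to 50 bases after the RefSeq start (GRCm38.p6, the assembly of mm10), and capitals mark the core of the metal response element, TGCACNC or TGCGCNC on either strand, a motif chosen after the values were seen. The Mt1 window (chr8:94178839-94179138, + strand) holds 3 matches and the Mt2 window (chr8:94172368-94172667, + strand) 4. Of all 32851 promoter windows 25.7% hold at least 1 match and 1.97% hold 3 or more.
Mt1: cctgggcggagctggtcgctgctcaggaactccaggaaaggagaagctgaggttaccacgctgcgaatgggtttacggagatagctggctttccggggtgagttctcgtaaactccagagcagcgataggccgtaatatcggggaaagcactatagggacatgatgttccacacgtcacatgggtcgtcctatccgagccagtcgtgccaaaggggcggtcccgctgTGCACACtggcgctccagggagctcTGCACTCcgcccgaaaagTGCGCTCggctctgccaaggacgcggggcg
Mt2: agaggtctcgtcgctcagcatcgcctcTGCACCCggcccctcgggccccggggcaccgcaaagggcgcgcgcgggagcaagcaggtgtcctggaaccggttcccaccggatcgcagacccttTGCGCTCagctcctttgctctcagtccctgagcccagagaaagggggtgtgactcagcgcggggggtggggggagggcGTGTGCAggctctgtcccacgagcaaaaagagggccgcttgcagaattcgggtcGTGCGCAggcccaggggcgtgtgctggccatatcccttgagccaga

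Nupr1 (chromosome 7, 126623249 to 126627010) held 1123, 1619 and 1429.7 normalised counts in wt, 485, 461 and 500.0 in S1pr2 null, 7862, 8226 and 5972 in control and 26083, 27411 and 22992 in JTE. The null-labelled libraries were lowest and JTE libraries highest, and the lack of overlap in either arm was required by the choice of this gene. Its interaction was 3.32 ± 0.18 (edgeR adjusted p = 2e-08). Reep6 held 349, 476 and 362 in wt, 232, 205 and 202 in S1pr2 null, 554, 548 and 498 in control and 2825, 2839 and 2379.6 in JTE. Slc1a5 held 828, 1018 and 919.5 in wt, 264, 196 and 236 in S1pr2 null, 1366, 1581 and 1089 in control and 3192, 3088 and 2135 in JTE. Slc1a5 thus had the widest fall of these genes in the genotype arm, with a log2 fold change of −1.99 ± 0.18 (edgeR adjusted p = 4.5e-06), and a rise of 1.06 ± 0.15 with JTE (edgeR adjusted p = 3.9e-05). For Mt1, Mt2, Nupr1, Reep6 and Slc1a5 wt 2 was the highest wt library, as for most acinar enzyme genes. The part of acinar content in these genotype falls was not tested.

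**Figure D2:**
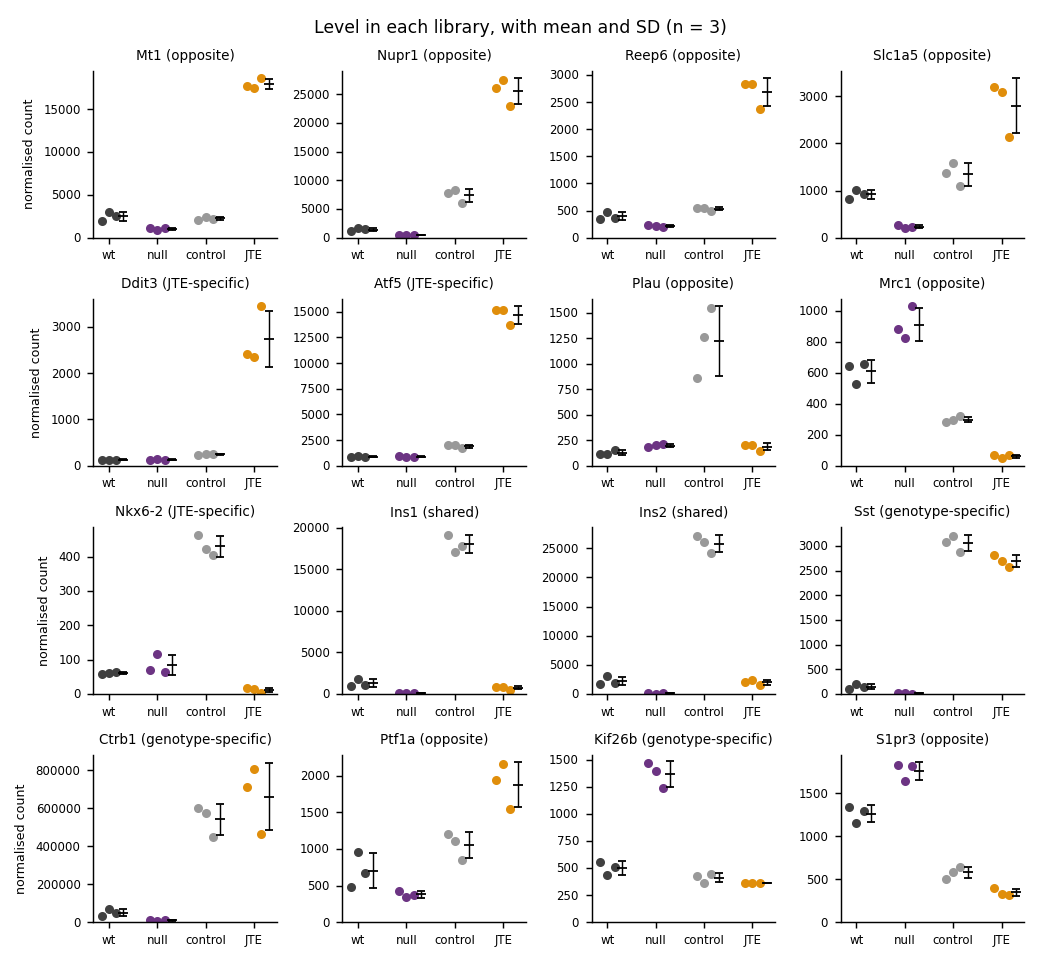
Normalised count (y axis, linear, from 0) of 16 genes in each of the 12 libraries, by group on the x axis, with the mean and SD of 3 libraries beside the points. The JTE libraries of Mt1, Nupr1, Reep6, Ddit3 and Atf5 sit above all others, whereas Sst and Ctrb1 are low in the fresh groups, lowest in the libraries labelled S1pr2 null, and high in both cultured groups.

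Targets of ATF4 made up the list with the highest median interaction of the lists examined. Of the 34 members tested, 32 rose in the JTE arm, 13 fell in the genotype arm and 33 had a higher interaction. The median log2 fold change was 1.70 in the JTE arm and −0.28 in the genotype arm, and the median interaction was 1.94, beside 0.00, −0.01 and 0.00 over all genes. By class, 12 members were opposite and 20 were JTE-specific. The summed normalised count of the list was 24911, 29055 and 27098 in wt 1, 2 and 3 and 20674 to 20909 in S1pr2 null, so wt 2 was again highest. The part of acinar content in the genotype falls of this list was not tested. Atf4 itself rose by 1.20 ± 0.07 with JTE (edgeR adjusted p = 4.9e-09) and fell in the genotype arm, at −0.25 ± 0.07 (edgeR adjusted p = 0.012).

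The opposite members were mostly enzymes and carriers of amino acid supply. Asns, asparagine synthetase (chromosome 6, 7675169 to 7693254), held 1111, 1494 and 1340.5 normalised counts in wt, 510.3, 514 and 549 in S1pr2 null, 2214, 2323 and 1844 in control and 4349.6, 4384 and 3770.0 in JTE. Its log2 fold change was 0.97 ± 0.10 with JTE and −1.32 ± 0.11 with the genotype, and the interaction was 2.29 ± 0.15 (edgeR adjusted p = 7.7e-08). The serine pathway moved the same way at its 3 steps. Phgdh, Psat1 and Psph had interactions of 0.96 ± 0.11, 1.57 ± 0.10 and 1.64 ± 0.15, and each was opposite. Of these, 47.8% of the 50-base words of Phgdh transcripts also occur in other genes, so its count is less certain. Mthfd2 and Shmt2, mitochondrial one-carbon enzymes, had interactions of 2.42 ± 0.10 and 0.86 ± 0.09. Slc7a1, a carrier of cationic amino acids, rose by 1.29 ± 0.06 with JTE and fell with the genotype, at −0.67 ± 0.07. Slc3a2, the heavy chain of several amino acid carriers, was JTE-specific, at 1.90 ± 0.08. Stc2, a secreted glycoprotein, held 303, 366 and 339 in wt, 216, 209.9 and 226 in S1pr2 null, 504, 574 and 444 in control and 2867, 2721 and 2456 in JTE, with no overlap in either arm.

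The JTE-specific members included the transcription factors of the stress branch. Ddit3, which encodes CHOP (chromosome 10, 127290774 to 127296288), held 114, 134 and 131 in wt, 123, 149.8 and 129.6 in S1pr2 null, 228, 259.9 and 249 in control and 2407, 2354 and 3439 in JTE. The fresh groups overlapped, with a genotype log2 fold change of 0.09 ± 0.18 (95% interval −0.31 to 0.48), against 3.48 ± 0.14 with JTE (edgeR adjusted p = 2.1e-10). Atf5, a related bZIP factor (chromosome 7, 44812257 to 44816658), held 836, 937 and 879 in wt, 978, 863 and 830.4 in S1pr2 null, 1996, 1977 and 1745 in control and 15126, 15187 and 13693 in JTE. Its interaction was 2.93 ± 0.10 (edgeR adjusted p = 4.9e-10). Trib3, a pseudokinase induced by CHOP, held 25.1, 13.9 and 25.2 in wt and 27.4, 26.7 and 21.7 in S1pr2 null, which overlapped, against 127, 149 and 104 in control and 3463, 3514 and 4359 in JTE. Its rise of 4.89 ± 0.12 was the largest of the list in the JTE arm.

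Other JTE-specific members served redox balance, one-carbon metabolism and lipid uptake. Aldh1l2, a mitochondrial folate enzyme, held 200.1, 163 and 192 in wt, 177, 179 and 171 in S1pr2 null, 365, 414 and 284 in control and 3164, 3456 and 2803 in JTE. Cth, which makes cysteine from cystathionine, held 235, 300.1 and 267 in wt, 207, 176 and 197 in S1pr2 null, 251, 285 and 159 in control and 1275, 1268 and 1006 in JTE. Vldlr, a lipoprotein receptor, held 391, 338 and 389.9 in wt, 419, 363 and 497 in S1pr2 null, 559, 615 and 508 in control and 3384, 3435 and 3464 in JTE. In all 3 the JTE libraries stood clear of the control libraries, as the choice of these leading genes required. Their interactions were 3.22 ± 0.18 for Aldh1l2, 2.81 ± 0.23 for Cth and 2.42 ± 0.14 for Vldlr. Chac1, which degrades glutathione, was low in fresh pancreata, at a mean of 11.2 ± 3.89 in wt and 7.52 ± 0.375 in S1pr2 null (SD, n = 3), and rose from 239 ± 53.9 in control to 1299.9 ± 197 in JTE. Ddit4 and Cbs were the members that did not pass the test with JTE, at −0.20 ± 0.13 and −0.20 ± 0.18, and Cbs fell in the genotype arm, at −1.20 ± 0.20 (edgeR adjusted p = 0.00071).

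**Figure D3:**
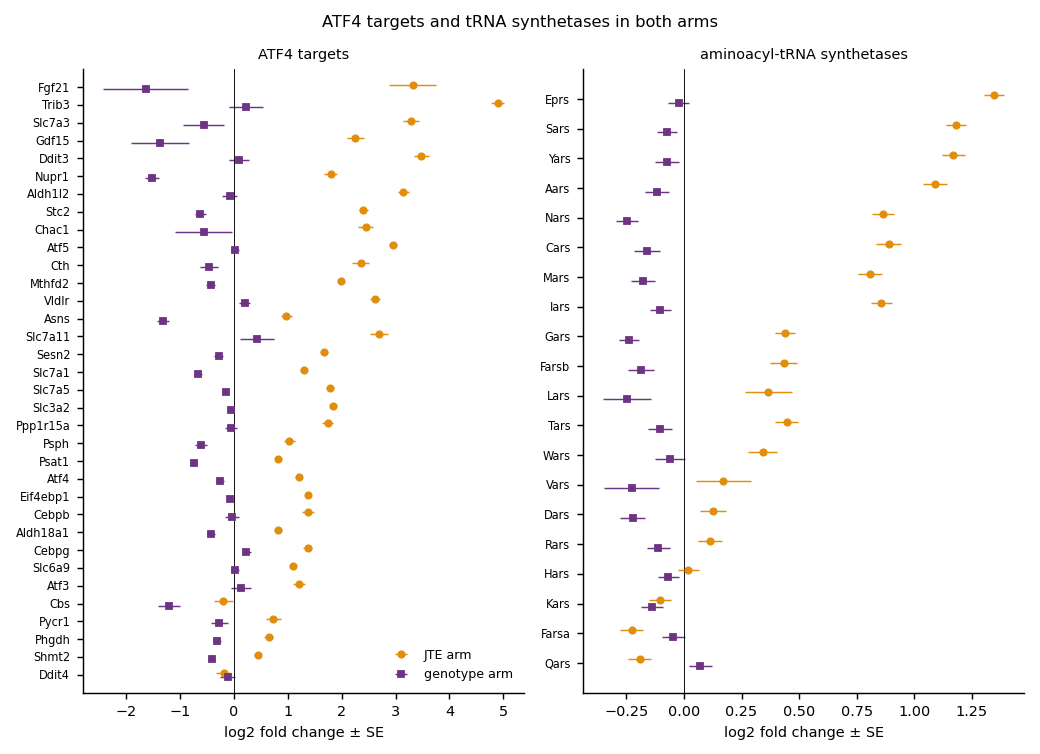
Log2 fold change (x axis) with its SE in the JTE arm (circles) and in the genotype arm (squares) for the 34 ATF4 targets and the 20 cytosolic tRNA synthetases tested, each ordered by the interaction. The JTE values of all ATF4 targets but Cbs and Ddit4 lie above 0, and most genotype values lie at or below 0.

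Promoters of 4 ATF4 targets are shown because they hold the motif TGATGNAA, the composite ATF4 and CHOP element, on either strand, marked in capitals. RefSeq promoter windows were matched for 29 of the 34 members, and 9 of these held the motif (Asns, Atf3, Chac1, Fgf21, Nupr1, Pycr1, Slc7a11, Trib3 and Vldlr), which is 31.0%, against 4.5% of all 27025 genes with a window and 2.8% of the 11625 tested genes with a window. The windows lie on GRCm38.p6 at chr6:7693160-7693459 (− strand) for Asns, chr2:152344011-152344310 (− strand) for Trib3, chr2:119350992-119351291 (+ strand) for Chac1 and chr7:126625421-126625720 (− strand) for Nupr1. A match is a description of the letters, not of binding.
Asns: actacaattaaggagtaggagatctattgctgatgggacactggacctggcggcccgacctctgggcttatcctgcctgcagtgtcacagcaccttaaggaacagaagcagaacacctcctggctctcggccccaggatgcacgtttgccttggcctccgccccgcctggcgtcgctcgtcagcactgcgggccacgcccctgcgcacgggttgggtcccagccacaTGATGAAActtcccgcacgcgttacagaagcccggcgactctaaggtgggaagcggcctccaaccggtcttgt
Trib3: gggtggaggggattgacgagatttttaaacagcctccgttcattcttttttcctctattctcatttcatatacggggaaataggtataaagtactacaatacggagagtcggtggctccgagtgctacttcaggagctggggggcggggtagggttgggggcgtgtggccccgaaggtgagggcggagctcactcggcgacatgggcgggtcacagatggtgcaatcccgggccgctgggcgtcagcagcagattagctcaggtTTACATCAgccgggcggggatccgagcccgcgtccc
Chac1: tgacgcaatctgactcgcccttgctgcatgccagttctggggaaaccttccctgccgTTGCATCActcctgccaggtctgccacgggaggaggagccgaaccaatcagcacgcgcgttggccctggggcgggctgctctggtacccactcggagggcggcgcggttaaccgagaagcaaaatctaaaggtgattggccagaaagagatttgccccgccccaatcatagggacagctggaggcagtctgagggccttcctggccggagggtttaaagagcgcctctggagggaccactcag
Nupr1: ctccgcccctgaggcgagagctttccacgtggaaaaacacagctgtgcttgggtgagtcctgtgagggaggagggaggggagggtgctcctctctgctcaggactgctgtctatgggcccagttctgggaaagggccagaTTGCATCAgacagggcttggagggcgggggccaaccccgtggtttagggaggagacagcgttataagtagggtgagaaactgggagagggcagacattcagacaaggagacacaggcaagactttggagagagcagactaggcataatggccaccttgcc

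The genes for charging tRNA with amino acids moved in the same manner at smaller size. Of the 20 cytosolic aminoacyl-tRNA synthetases, 13 rose and 2 fell with JTE, 7 fell in the genotype arm, and 15 had a higher and 2 a lower interaction. Eprs, which charges glutamate and proline, held 2979, 3023 and 3135 in wt, 3012, 2997 and 2979 in S1pr2 null, 3499, 3579 and 3349 in control and 8609, 8748 and 9143 in JTE. The fresh libraries overlapped, and the interaction was 1.37 ± 0.06 (edgeR adjusted p = 3.4e-09). Sars, Yars and Aars followed, with interactions of 1.25 ± 0.06, 1.24 ± 0.07 and 1.21 ± 0.07. Nars, for asparagine, was opposite, at 0.86 ± 0.05 with JTE and −0.25 ± 0.05 with the genotype. Qars and Farsa went the other way, with interactions of −0.26 ± 0.07 and −0.18 ± 0.07.

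Ribosomal and mitochondrial genes differed between the arms by small amounts. Of the 84 cytosolic ribosomal protein genes tested, 35 rose and 4 fell with JTE, 1 rose and 8 fell in the genotype arm, and 35 had a higher and 3 a lower interaction, with medians of 0.22, −0.08 and 0.28. Rpl13a and Rps15a were opposite and Rpl4 and Rpl12 JTE-specific, with interactions of 0.57 ± 0.07, 0.37 ± 0.07, 0.35 ± 0.06 and 0.52 ± 0.11. Many of these genes share sequence with pseudogenes, which makes single members uncertain. Of the 79 nuclear-encoded subunits of oxidative phosphorylation tested, 21 fell in the genotype arm, and 16 rose and 14 fell with JTE. Over all genes 13.7% fell in the genotype arm, and 26.2% rose and 26.4% fell with JTE. The interaction was higher for 28 of the 79 and lower for 3, with a median of 0.15. Sdhb and Ndufs7 were JTE-specific, with interactions of 0.55 ± 0.07 and 0.59 ± 0.09. Ndufa6, Ndufb10 and Cyc1, parts of complexes I and III, were opposite, with interactions of 0.76 ± 0.10, 0.70 ± 0.09 and 0.50 ± 0.07.

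Genes of the unfolded protein response took both directions with JTE and none rose with the genotype. Of the 25 genes in that list, 19 fell in the genotype arm, whereas 14 fell and 6 rose with JTE, and the interaction was higher for 9 and lower for 2. The sensors Ern1 and Atf6 rose with JTE, at 1.29 ± 0.07 and 0.73 ± 0.05, as did the degradation genes Herpud1, Sel1l and Derl1, at 0.87 ± 0.11, 1.05 ± 0.14 and 0.50 ± 0.06, and the chaperone Canx, at 0.23 ± 0.05. The degradation genes Syvn1, Derl2 and Derl3 fell with JTE, at −0.20 ± 0.08, −0.13 ± 0.05 and −1.90 ± 0.20, and Edem1 stood at 0.02 ± 0.15. Ern1 held 808, 971 and 892 in wt, 743, 758 and 745 in S1pr2 null, 1062, 1238 and 1239.6 in control and 2943, 2898 and 2798 in JTE, with no overlap in either arm. The 11 shared members included luminal chaperones and foldases. Hsp90b1 fell in both arms, at −0.24 ± 0.05 with JTE and −0.24 ± 0.05 with the genotype, as did Calr, at −0.22 ± 0.05 and −0.15 ± 0.05, and Pdia6, at −0.52 ± 0.07 and −0.25 ± 0.07. Hspa5, the main luminal chaperone, passed the test in neither arm, with an interaction of 0.02 (95% interval −0.14 to 0.18).

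The Nrf2 list, genes of glutathione and detoxification, was mixed. Of the 27 tested members 13 rose and 9 fell with JTE, 7 fell in the genotype arm, and the interaction was higher for 15 and lower for 6. Gclc and Gclm, both subunits of the enzyme that starts glutathione synthesis, had interactions of 0.91 ± 0.09 and 0.80 ± 0.09. Osgin1 was opposite, with 139.6, 183 and 178 in wt, 118, 113 and 116 in S1pr2 null, 125, 131 and 122 in control and 272, 296 and 230.0 in JTE. Gstm1, a glutathione transferase, was opposite, with an interaction of 1.93 ± 0.22. Abcc4, an export pump, had an interaction of 0.98 ± 0.10. Slc7a11 of this list is also counted among the ATF4 targets above. The letters TGACNNNGC, the antioxidant response element, were found in 40.9% of the 22 matched promoters of this list and in 16.7% of tested genes with a window.

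Genes opposite in the other sense, lower with JTE and higher in the libraries labelled S1pr2 null, were led by Pcp4l1, Plau, Col9a1, Mrc1 and Dab2. Plau, urokinase (chromosome 14, 20836662 to 20843388), held 117, 116 and 153 in wt and 179.6, 201 and 215 in S1pr2 null. In culture it held 865, 1264 and 1542 in control and 208, 202 and 149 in JTE. The wt and null-labelled libraries did not overlap, as its choice required, but lay close, and the genotype call was near the threshold (edgeR adjusted p = 0.048). That call was lost when any of the fresh libraries other than wt 3 was left out, at an edgeR adjusted p of 0.064 to 0.16. The interaction was −3.35 ± 0.29 (edgeR adjusted p = 1e-06). Pcp4l1, a small relative of Pcp4, held 68.9, 45.6 and 68.9 in wt, 153, 96.4 and 121 in S1pr2 null, 161, 164 and 102 in control and 19.7, 34.9 and 6.74 in JTE. Its genotype call was lost without wt 2, S1pr2 null 1 or S1pr2 null 3, at an edgeR adjusted p of 0.056 to 0.10, and its interaction was −3.83 ± 0.47 (edgeR adjusted p = 2.2e-05).

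Col9a1, a cartilage collagen chain (chromosome 1, 24177610 to 24252684), held 515, 461 and 444 in wt, 744, 759 and 621 in S1pr2 null, 112, 85.2 and 137 in control and 9.85, 21.1 and 17.3 in JTE. Dab2, an endocytic adaptor, held 1298, 1119 and 1226 in wt, 1721, 1731 and 2025 in S1pr2 null, 697, 1008 and 975 in control and 201, 207 and 251 in JTE. Mrc1, the macrophage mannose receptor, held 642, 525 and 656 in wt, 881, 822 and 1027 in S1pr2 null, 282, 292 and 318 in control and 67.9, 47.6 and 67.4 in JTE. All 3 were higher in fresh than in cultured libraries. Their libraries did not overlap in either arm, as the choice of these genes required. Their interactions were −3.35 ± 0.28, −2.61 ± 0.18 and −2.87 ± 0.18, in that order.

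Receptors of sphingosine-1-phosphate and of the related lipid lysophosphatidic acid moved apart. Of the 8 receptor genes tested, 4 rose in the genotype arm (S1pr2, S1pr3, Lpar1 and Lpar4), 3 fell with JTE (S1pr1, S1pr3 and Lpar6), and the interaction was lower for these 6 genes. S1pr3 (chromosome 13, 51408618 to 51422797) held 1336, 1148 and 1296 in wt and 1831, 1640.1 and 1811 in S1pr2 null, and 507, 588 and 641 in control and 391, 331 and 319 in JTE. It was the opposite member, at 0.48 ± 0.08 with the genotype and −0.74 ± 0.10 with JTE, an interaction of −1.22 ± 0.13 (edgeR adjusted p = 6.2e-06). Lpar1 held 818, 633 and 648 in wt, 1415, 1261 and 1279 in S1pr2 null, 247, 219 and 317 in control and 249.6, 292 and 365 in JTE. It rose in the genotype arm by 0.91 ± 0.12, its cultured groups overlapped, and its interaction was −0.70 ± 0.20 (edgeR adjusted p = 0.012). S1pr1 fell with JTE, at −0.56 ± 0.08, and its genotype value was 0.15 ± 0.08 (95% interval −0.03 to 0.33).

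Enzymes of the same lipid pathway took both directions. Asah1, an acid ceramidase, and Sgpp1, a phosphatase of sphingosine-1-phosphate, were opposite, with interactions of 0.9995 ± 0.08 and 0.94 ± 0.08. The exporter Spns2 fell with JTE, at −0.83 ± 0.14, and the kinase Sphk2 rose, at 0.43 ± 0.07. The phosphatase Plpp3 and the ceramidase Asah2 were JTE-specific, with interactions of 0.49 ± 0.08 and 0.94 ± 0.18. The lyase Sgpl1, which ends the pathway, rose in both arms, at 0.36 ± 0.06 with JTE and 0.32 ± 0.07 with the genotype. Sphk1 passed the test in neither arm, at 0.00 ± 0.09 and −0.21 ± 0.09.

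More genes of the mesenchyme were called with the genotype than with JTE. Of 20 mesenchymal and splenopancreatic genes 13 rose and 5 fell in the genotype arm, and 4 rose and 5 fell with JTE, with median log2 fold changes of 0.40 and −0.07. The interaction was lower for 11 and higher for 4. Tlx1, a factor of the spleen primordium (chromosome 19, 45149236 to 45156943), held 210.3, 176 and 163 in wt, 347, 303 and 518 in S1pr2 null, 114, 104 and 108 in control and 93.1, 68.7 and 129 in JTE. Its fresh groups did not overlap, as its choice required, and its cultured groups did, with an interaction of −1.25 ± 0.31 (edgeR adjusted p = 0.0051). Pdgfra, Tcf21 and Meis1 were also genotype-specific and higher, with interactions of −0.83 ± 0.11, −1.04 ± 0.20 and −0.73 ± 0.11. Vim, an intermediate filament of mesenchymal cells, was opposite, with an interaction of −0.75 ± 0.08. The collagen Col1a1 ran the other way, at −0.37 ± 0.08 with the genotype and 0.50 ± 0.08 with JTE. The summed normalised count of the list was 156100 to 157200 in wt, 130220 to 151290 in S1pr2 null, 146640 to 155020 in control and 156080 to 190920 in JTE, and Col1a1 and Col1a2 made up a large share of it.

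Hox genes, which set position along the body, were called mostly in the genotype arm. Of the 21 tested, 13 rose in the genotype arm, against 3 that rose and 1 that fell with JTE, and the interaction was lower for 13 and higher for 1. Hoxb3 held 348, 339 and 355 in wt, 589, 557 and 597 in S1pr2 null, 240.3, 263 and 268 in control and 182, 199.7 and 226 in JTE, and was opposite. Hoxa3, Hoxb5 and Hoxb8 were genotype-specific, with genotype values of 0.58 ± 0.10, 0.69 ± 0.13 and 1.15 ± 0.25. The other 14 of the 35 listed Hox genes carried too few reads to be tested.

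Under the same limits, the genotype-specific genes that rose and had the largest interactions were, beside Tlx1, Kif26b, a kinesin-like protein, Frem1, a basement membrane protein, 6330403K07Rik and Fam129c. Kif26b (chromosome 1, 178529125 to 178932855) held 558, 435 and 508 in wt, 1469, 1399.6 and 1237 in S1pr2 null, 426, 363 and 444 in control and 358, 362 and 364 in JTE. Frem1 held 568, 403 and 481 in wt, 1069, 1090.5 and 1150.4 in S1pr2 null, 158, 237 and 228 in control and 157, 133 and 179.9 in JTE. For Kif26b the cultured groups overlapped, while for Frem1 2 of the 3 JTE libraries lay below all control libraries. 6330403K07Rik held 762, 628 and 728 in wt, 2405, 1985 and 1952 in S1pr2 null, 708, 666 and 858 in control and 706, 607 and 784 in JTE. Fam129c held 43.7, 52.5 and 58.2 in wt, 117, 133 and 132 in S1pr2 null, 116, 147 and 124 in control and 134, 117 and 105 in JTE, and 19.2% of its 50-base words occur in other genes. The interactions ran from −1.67 ± 0.16 for 6330403K07Rik to −1.43 ± 0.20 for Fam129c.

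Collagens were opposite in both senses. Of the 41 tested, 20 fell and 8 rose with JTE, 12 rose and 12 fell in the genotype arm, 10 were opposite, 10 JTE-specific, 8 genotype-specific and 5 shared. Beside Col9a1, Col2a1 was lower with JTE and higher with the genotype, at −1.87 ± 0.13 and 0.34 ± 0.08, as were Col9a2 and Col11a1, with interactions of −0.87 ± 0.12 and −0.77 ± 0.09. Col5a3 was the reverse, with 250.3, 334 and 265 in wt, 70.01, 55.3 and 54.8 in S1pr2 null, 954, 1161 and 1013 in control and 1104, 1478 and 1424 in JTE, where the cultured groups overlapped, at 0.36 ± 0.11 with JTE and −2.24 ± 0.18 with the genotype. Col9a3 fell in both arms, at −1.86 ± 0.08 and −0.46 ± 0.07.

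**Figure D4:**
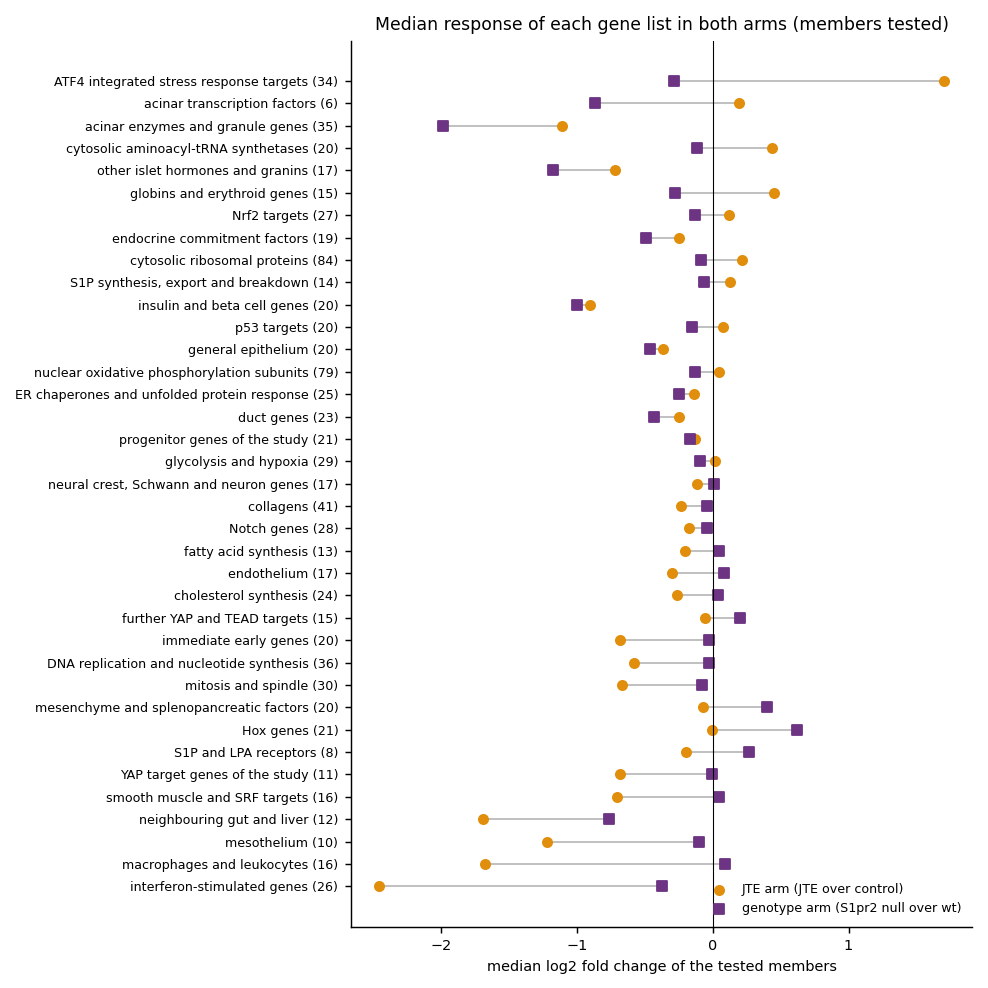
Median log2 fold change (x axis) of the tested members of each gene list in the JTE arm (circles) and in the genotype arm (squares), ordered by the median interaction, with the number of members tested in brackets. The markers stand farthest apart for ATF4 targets at the top and for macrophage and interferon-stimulated genes at the bottom, and lie close together for insulin and beta cell genes and general epithelium, both below 0.

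Ins1 and Ins2 led the genes that fell in both arms. Ins1 (chromosome 19, 52264323 to 52265456) held 939, 1821 and 1079 in wt and 79.1, 54.4 and 99.1 in S1pr2 null, and 19150, 17063 and 17845 in control and 820.0, 835 and 523 in JTE. Ins2 held 1629, 3055 and 1929 in wt and 80.2, 51.5 and 128 in S1pr2 null, and 27111, 26155 and 24146 in control and 2127, 2354 and 1497 in JTE. Both stood far higher in cultured than in fresh libraries. In neither arm did the groups overlap, which the choice of these genes required. The log2 fold changes of Ins1 were −4.64 ± 0.24 with JTE and −4.03 ± 0.28 with the genotype, an interaction of −0.60 ± 0.37 that missed the threshold (edgeR adjusted p = 0.21). Those of Ins2 were −3.70 ± 0.24 and −4.65 ± 0.29, and its interaction of 0.96 ± 0.37 was near the threshold (edgeR adjusted p = 0.048).

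Of the 20 insulin and beta cell genes tested, 16 fell with JTE, 15 fell and 1 rose in the genotype arm, and 13 were shared. The median log2 fold changes were −0.90 and −1.0002. Slc30a8, the zinc transporter of insulin granules, Mafa, an insulin gene activator, and Pcsk1, a prohormone convertase, fell more with the genotype, with interactions of 0.89 ± 0.29, 1.49 ± 0.43 and 0.47 ± 0.14. Iapp, which encodes amylin, fell in both arms, at −3.35 ± 0.19 with the genotype and −0.76 ± 0.14 with JTE, an interaction of 2.59 ± 0.23 (edgeR adjusted p = 1.5e-06). Slc2a2, the glucose transporter, and Pdx1 were JTE-specific and lower, at −0.83 ± 0.08 and −0.66 ± 0.08, while Abcc8 and Kcnj11, subunits of the ATP-sensitive potassium channel, were genotype-specific and lower, at −1.11 ± 0.11 and −0.52 ± 0.12. Nnat held 2293, 2349.9 and 2344 in wt, 3245, 3239 and 2933 in S1pr2 null, 3552, 3712 and 3908 in control and 1179, 1159 and 1234 in JTE, and was opposite.

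Of the other hormone and granule genes all 17 tested fell in the genotype arm, and 12 fell and 2 rose with JTE, with a higher interaction for 9. Gcg, glucagon, held 13721, 13758 and 13306 in wt, 8969, 7560.1 and 6879.8 in S1pr2 null, 11233, 13156 and 8391 in control and 5993, 6128 and 4201 in JTE. Its falls of −1.01 ± 0.15 and −0.80 ± 0.15 differed by −0.21 ± 0.22 (95% interval −0.67 to 0.26). Sst, somatostatin (chromosome 16, 23889581 to 23890844), held 95.8, 205 and 134 in wt and 15.2, 9.54 and 7.83 in S1pr2 null, and 3083, 3210.0 and 2878 in control and 2809, 2685 and 2578 in JTE. The cultured groups lay close without overlap and did not pass the test, at −0.18 ± 0.12. Sst fell in the genotype arm, at −3.74 ± 0.32, an interaction of 3.55 ± 0.35 (edgeR adjusted p = 3.6e-06). Ghrl, Ppy and Pyy were shared, at −0.46 ± 0.14, −1.88 ± 0.17 and −0.86 ± 0.11 with JTE. The granule genes Vgf and Ptprn were opposite and higher with JTE, with interactions of 2.65 ± 0.27 and 1.45 ± 0.12. Scg3 and Ptprn2 were genotype-specific, with interactions of 1.29 ± 0.13 and 1.12 ± 0.12.

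Among 19 endocrine commitment factors 13 fell and 1 rose in the genotype arm, and 9 fell and 2 rose with JTE. Neurog3, which starts the endocrine programme, held 2406, 2613 and 2384 in wt, 1839, 1796 and 1879.9 in S1pr2 null, 521, 467 and 375 in control and 382, 372 and 196 in JTE. The cultured groups overlapped slightly. Neurog3 fell with JTE, at −0.53 ± 0.18 (edgeR adjusted p = 0.022), and with the genotype, at −0.42 ± 0.14 (edgeR adjusted p = 0.041). The JTE call was lost without control 1 or control 2, at an edgeR adjusted p of 0.092 and 0.057, and the genotype call was lost without any 1 of the 6 fresh libraries, at edgeR adjusted p values of 0.070 to 0.13. Fev, Rfx6, Insm1, Myt1 and Irx2 were genotype-specific and lower, with interactions of 1.04 ± 0.16, 0.73 ± 0.13, 0.49 ± 0.10, 0.57 ± 0.14 and 1.17 ± 0.27. Mnx1 and Nkx2-2 were JTE-specific and lower, at −1.23 ± 0.13 and −0.61 ± 0.08. Pax4 and Pax6 were shared, with Pax4 lower by more with JTE (interaction −1.01 ± 0.21) and Pax6 by more with the genotype (0.73 ± 0.14). Irx1 was opposite, at 0.65 ± 0.10 with JTE and −0.66 ± 0.10 with the genotype.

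**Figure D5:**
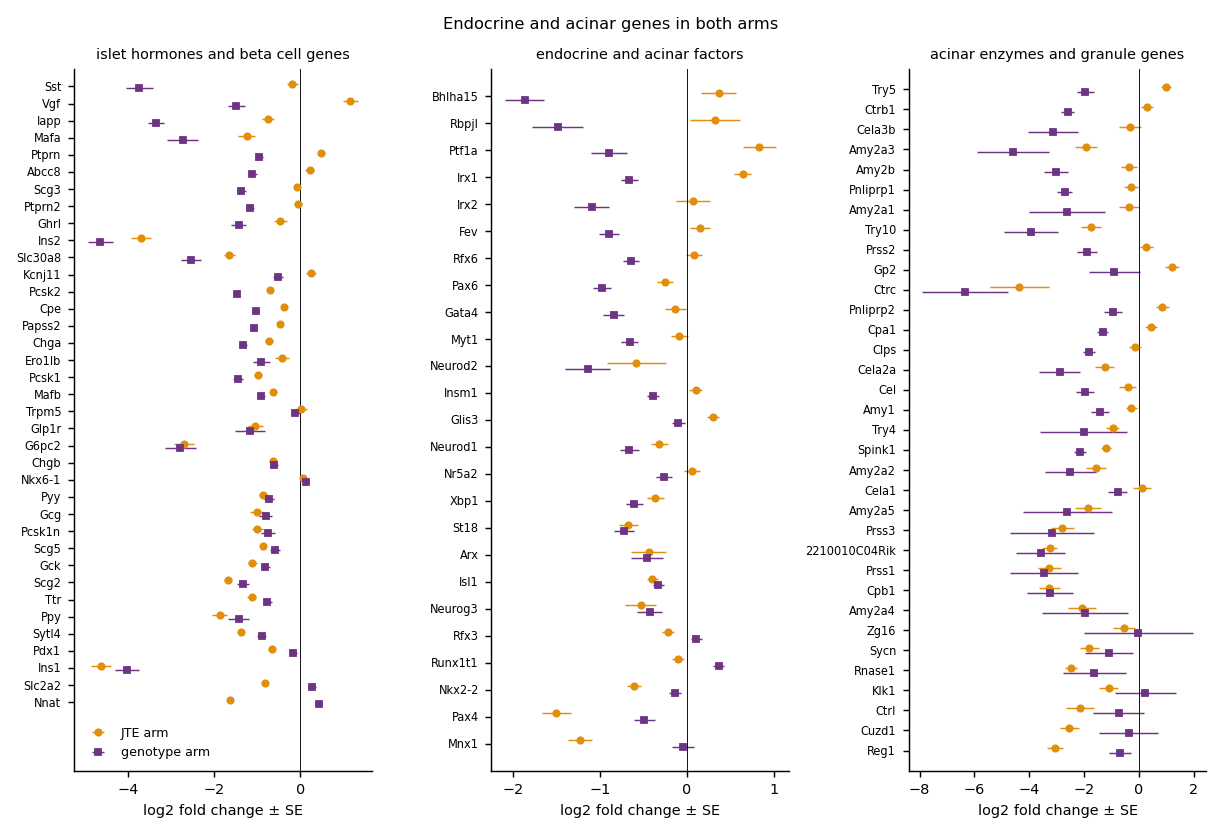
Log2 fold change (x axis) with its SE in the JTE arm (circles) and in the genotype arm (squares) for islet hormone and beta cell genes, for endocrine and acinar transcription factors, and for acinar enzyme and granule genes, each ordered by the interaction. Both markers lie below 0 for most hormone genes, whereas Sst, Ctrb1, Bhlha15 and Rbpjl have genotype values below 0 and JTE values near 0.

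Acinar enzymes held genes that fell in both arms, genes that fell with the genotype only and genes that fell with JTE without a genotype call. Of the 35 tested, 19 fell in the genotype arm, and 19 fell and 3 rose with JTE. The interaction was higher for 13 and lower for 1, and 7 genes were shared, 10 genotype-specific, 2 opposite and 1 JTE-specific. The other genes that fell with JTE were in no class, because neither their genotype change nor their interaction was called. Ctrb1, chymotrypsinogen B and the gene with the highest count of the list (chromosome 8, 111686510 to 111691010), held 32759, 68554 and 48808 in wt and 8466, 7746 and 8567 in S1pr2 null, and 600550, 573690 and 445280 in control and 710730, 806040 and 462660 in JTE. The cultured groups overlapped, and the interaction was 2.89 ± 0.32 (edgeR adjusted p = 8.6e-06). Pnliprp1, a lipase-related protein, held 25476, 47453 and 35907 in wt, 5645, 5179.7 and 5846 in S1pr2 null, 262100, 263580 and 167550 in control and 206190, 253750 and 106340 in JTE. Cela3b, an elastase, held 106, 239.7 and 138 in wt, 21.3, 12.4 and 20.9 in S1pr2 null, 2248, 2416 and 998 in control and 1711, 2296 and 529 in JTE. The libraries JTE 3 and control 3 were lowest of their groups for both genes. Cela3b lost its genotype call without wt 2, S1pr2 null 2 or S1pr2 null 3, at an edgeR adjusted p of 0.054 to 0.084. Its interaction of 2.80 ± 1.01 lost the call without any 1 of these, S1pr2 null 1, JTE 1 or JTE 2, at an edgeR adjusted p of 0.057 to 0.10, and 19.2% of its 50-base words occur in other genes. Cpa1, Clps, Cel and Prss2 were also genotype-specific, with interactions of 1.76 ± 0.29, 1.69 ± 0.32, 1.54 ± 0.44 and 2.16 ± 0.44.

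The shared acinar genes were led by Cpb1, Try10 and Erp27. Cpb1, carboxypeptidase B, held 85.6, 204 and 144 in wt, 22.3, 8.59 and 14.8 in S1pr2 null, 4899, 4569 and 2033 in control and 399.6, 633 and 164 in JTE. Its falls of −3.28 ± 0.38 with JTE and −3.24 ± 0.83 with the genotype differed by −0.04, which did not pass the test (edgeR adjusted p = 0.99). The SE of the genotype fall is wide, so equal falls are not shown. Try10, a trypsinogen, held 80.9, 218 and 102 in wt, 8.12, 11.4 and 6.09 in S1pr2 null, 6385, 6767 and 3865 in control and 1829, 2627 and 654 in JTE, and 40.8% of its 50-base words occur in related trypsinogens. Erp27, a pancreatic chaperone of the endoplasmic reticulum, held 241, 401 and 292 in wt, 47.7, 39.1 and 55.7 in S1pr2 null, 1774, 1717 and 1148 in control and 532, 591 and 283 in JTE. The null-labelled and the JTE libraries were each below all libraries of their comparison group, as the choice of these 3 genes required. Reg1 was the acinar gene of the JTE-specific class, which also asks for a called interaction. It held 21813, 15012 and 12664 in control and 1106, 1632 and 3155 in JTE, an interaction of −2.38 ± 0.49 (edgeR adjusted p = 0.0013). Try5 was opposite, at 0.98 ± 0.18 with JTE and −1.95 ± 0.31 with the genotype, but 47.6% of its 50-base words occur in other genes.

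All 6 acinar transcription factors fell in the genotype arm, while with JTE 1 rose and 1 fell. Ptf1a, which drives acinar fate (chromosome 2, 19445663 to 19447501), held 480.1, 952 and 674 in wt, 425, 341 and 369.6 in S1pr2 null, 1202, 1104 and 853 in control and 1938, 2158 and 1542 in JTE. It was opposite, at 0.83 ± 0.19 with JTE and −0.89 ± 0.21 with the genotype, an interaction of 1.73 ± 0.28 (edgeR adjusted p = 0.00023). Bhlha15, a factor of secretory cells, held 1052, 1948 and 1491 in wt, 374, 362 and 492 in S1pr2 null, 1825, 1878 and 1551 in control and 2551, 2662 and 1573 in JTE, an interaction of 2.23 ± 0.30. Rbpjl and Gata4 had interactions of 1.81 ± 0.41 and 0.71 ± 0.17. Adora1, an adenosine receptor outside these lists, was among the genotype-specific genes that fell and had the largest interactions under the same limits, with 92.1, 325 and 183 in wt, 31.5, 35.3 and 40.9 in S1pr2 null, 318, 341 and 308 in control and 483, 519.9 and 337 in JTE. The library wt 2 was the highest of the fresh libraries for Adora1, Ptf1a, Ctrb1 and Cpb1.

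General epithelial genes were lower beside these lineage genes. Of the 20 tested, 17 fell in the genotype arm, and 10 fell and 1 rose with JTE, with medians of −0.46 and −0.36. Cdh1, the main epithelial cadherin, fell with the genotype only, at −0.62 ± 0.08 against 0.11 ± 0.08 with JTE. Cldn6 was JTE-specific and lower and Ehf shared, with interactions of −1.12 ± 0.09 and −0.97 ± 0.11, and Rab25 was opposite, at 0.76 ± 0.10. Krt8 and Krt18, simple epithelial keratins, were shared, although 26.9% of the 50-base words of Krt8 occur in other genes. The summed normalised count of the list was 43225 to 47907 in wt, 31957 to 34010 in S1pr2 null, 63214 to 73222 in control and 43451 to 54886 in JTE, with no overlap within either arm. The part of epithelial content in the hormone and enzyme falls was not tested.

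Of 23 duct genes 10 fell in the genotype arm, and 11 fell and 4 rose with JTE, with a higher interaction for 8 and a lower one for 6. Krt19 fell in both arms, at −0.68 ± 0.06 and −0.76 ± 0.07, with 904, 902 and 768 in wt, 517, 518 and 485 in S1pr2 null, 2044, 1993 and 2048 in control and 1260.1, 1359 and 1177 in JTE. The difference of these falls was 0.08 (95% interval −0.13 to 0.28). Aqp1, a water channel, fell more with JTE, with a mean of 1059 ± 116 in control and 119 ± 23.4 in JTE (SD, n = 3), an interaction of −2.67 ± 0.16 (edgeR adjusted p = 3.7e-08). Spp1 and Cftr were JTE-specific and lower, at −1.39 ± 0.11 and −2.05 ± 0.22, as was Sox9, a factor of duct cells and progenitors, at −0.70 ± 0.09. Pkhd1, a protein of the primary cilium, was opposite and higher with JTE, with an interaction of 1.13 ± 0.16. Muc1 was genotype-specific and lower, at −1.24 ± 0.19. Slc26a3, an anion exchanger, went from 1, 0 and 1 reads in control to 249, 246 and 157 in JTE, too few in control for a fold. Car2, a carbonic anhydrase, was called in neither arm nor in the interaction, which had a 95% interval of −0.92 to 0.70.

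The shared genes that rose were led by Sox11, Slc2a4, Arhgap20, Rragd and Kcp. Sox11, a factor of immature cells, held 209, 229 and 208 in wt, 445, 488 and 468 in S1pr2 null, 95.5, 99.8 and 157 in control and 266, 231 and 436 in JTE. Slc2a4, the insulin-dependent glucose transporter, held 76.3, 59.4 and 87.3 in wt, 150.2, 148 and 168 in S1pr2 null, 38.4, 41.6 and 31.2 in control and 101, 108 and 183 in JTE. Rragd, a GTPase of the mTORC1 pathway, held 135, 129.7 and 108 in wt, 227, 242 and 230.4 in S1pr2 null, 256, 256 and 325 in control and 623, 716 and 785 in JTE. In each, both arms separated their libraries, as the choice of these leading genes required. Arhgap20, a GTPase activator, rose by 1.52 ± 0.23 and 0.98 ± 0.19, and Kcp, a secreted regulator of BMP signals, by 0.87 ± 0.10 and 0.82 ± 0.10, in the JTE and genotype arms. The interaction of Kcp was 0.05 (95% interval −0.26 to 0.35).

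Of 21 progenitor genes named by the study 9 fell and 3 rose with JTE, and 8 fell and 1 rose in the genotype arm, with a lower interaction for 6 and a higher one for 5. Nkx6-2, a homeobox factor (chromosome 7, 139579377 to 139582797), held 56.8, 61.4 and 63.05 in wt, 70.01, 116 and 64.3 in S1pr2 null, 463, 421 and 405 in control and 16.4, 14.8 and 3.85 in JTE. The JTE libraries lay far below control, and the gene was JTE-specific. The null-labelled libraries lay just above wt without passing the test, at 0.47 ± 0.24 (edgeR adjusted p = 0.17). Its interaction was −5.68 ± 0.38 (edgeR adjusted p = 1e-07). Dll1, a Notch ligand, held 521, 534 and 489.8 in wt, 412, 477 and 435 in S1pr2 null, 507, 516 and 509 in control and 181, 210.3 and 126 in JTE, an interaction of −1.35 ± 0.17 (edgeR adjusted p = 2.1e-05). Of the 28 Notch pathway genes tested, 13 fell and 5 rose with JTE, and 8 rose and 5 fell in the genotype arm. The receptors Notch2 and Notch3, the ligand Jag1 and the target Hey1 were genotype-specific and higher, at 0.42 ± 0.06, 0.58 ± 0.08, 0.38 ± 0.06 and 0.44 ± 0.11. The target Hes1 and the coactivator Maml2 were opposite, with interactions of −0.51 ± 0.09 and −1.32 ± 0.18. Hes6 was JTE-specific and lower, at −0.93 ± 0.07, and the ubiquitin ligase Mib2 was shared, with an interaction of 0.83 ± 0.07. Nkx6-1 and Gata6 were called in no contrast, and the interaction of Gata6 was −0.02 (95% interval −0.17 to 0.13).

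Targets of YAP, the growth-controlling coactivator that works with TEAD factors, fell with JTE. This list of 11 genes is one that the study sets out with its levels in these JTE samples, and is not independent evidence of its direction. All 11 fell in the JTE arm, 2 rose and 1 fell in the genotype arm, and the interaction was lower for 10. Hmmr, Pola1 and Mcm6 of this list are counted again in the cell cycle lists below, so those falls are not separate results. Ccn2, connective tissue growth factor, held 183, 201 and 169.8 in wt, 189, 181 and 180.0 in S1pr2 null, 339, 287 and 257 in control and 115, 83.5 and 44.3 in JTE. Its genotype value was −0.01 ± 0.20 (95% interval −0.43 to 0.41) and its interaction −1.87 ± 0.29 (edgeR adjusted p = 0.00016). Amotl2, which binds YAP, was opposite, with an interaction of −0.89 ± 0.09, and Ctnnd1, p120 catenin, was JTE-specific, at −0.70 ± 0.07, with 56.7% of its 50-base words in other genes. Ccnd1, a G1 cyclin, had an interaction of −1.10 ± 0.11, and Cdk6, its kinase partner, one of −0.39 ± 0.15 near the threshold (edgeR adjusted p = 0.045). With single libraries removed, the interaction of Cdk6 missed the threshold 8 times of 12, at an edgeR adjusted p of 0.056 to 0.12, and passed it only without wt 1, S1pr2 null 1, control 3 or JTE 2. Yap1 itself rose with the genotype, at 0.39 ± 0.05, and stood at 0.01 ± 0.05 with JTE. In a further list of 15 YAP and TEAD targets the arms split, with 7 up and 4 down in the genotype arm and 2 up and 5 down with JTE. There Dock5 and F3 were opposite and higher with JTE, with interactions of 1.82 ± 0.12 and 1.22 ± 0.15, while Ajuba, Myof and Arhgef17 were opposite and lower, at −0.54 ± 0.08, −0.62 ± 0.10 and −0.44 ± 0.07. The TEAD letters GGAATG were found in 3 of 8 and in 6 of 11 matched promoters of the lists, against 14.8% of tested genes with a window.

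Cell cycle genes were lower with JTE. All 30 genes of mitosis and spindle fell in the JTE arm and 9 fell in the genotype arm, and the interaction was lower for 27. The median log2 fold changes were −0.66 and −0.08. Mki67, the Ki-67 antigen, held 5325, 5909 and 5814 in wt, 5134, 5352 and 5506 in S1pr2 null, 2757, 3127 and 3028 in control and 1558, 1606 and 1592 in JTE. It was lower in cultured than in fresh libraries, and JTE libraries lay below all control libraries. Nusap1, Kif11 and Kif2c, which act on spindle microtubules, were JTE-specific, with interactions of −0.96 ± 0.07, −0.68 ± 0.07 and −0.83 ± 0.09. Cdc20, Cdk1 and Cenpa were shared, with interactions of −0.81 ± 0.09, −0.61 ± 0.07 and −0.61 ± 0.07. Of 36 DNA replication and nucleotide genes 31 fell and 1 rose with JTE, 3 fell and 2 rose with the genotype, and the interaction was lower for 28. The helicase subunit Mcm5 and the licensing factor Cdc6 had interactions of −0.89 ± 0.08 and −1.25 ± 0.13, and the helicase subunits Mcm6 and Mcm7 and the ligase Lig1 ones of −0.66 ± 0.07, −0.68 ± 0.07 and −0.66 ± 0.06.

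The Mki67 promoter is shown as an example of the cell cycle homology region, TTTGAA, in capitals. The letters were found on either strand in 18 of 24 matched mitosis promoters, which is 75.0%, against 20.2% of genes with a window and 14.2% of tested genes. The Mki67 window (GRCm38.p6, chr7:135716330-135716629, − strand) holds 2 matches.
Mki67: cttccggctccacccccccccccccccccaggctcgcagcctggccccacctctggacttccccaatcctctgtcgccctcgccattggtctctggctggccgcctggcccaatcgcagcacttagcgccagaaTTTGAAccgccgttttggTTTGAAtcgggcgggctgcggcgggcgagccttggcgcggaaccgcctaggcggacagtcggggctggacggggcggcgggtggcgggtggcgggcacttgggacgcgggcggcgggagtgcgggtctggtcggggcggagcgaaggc

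Macrophage genes were JTE-specific almost throughout. All 16 tested fell in the JTE arm, with a median of −1.67, and the interaction was lower for all 16, while 1 rose and 1 fell in the genotype arm. Csf1r, the growth factor receptor of macrophages, held 609, 549 and 588 in wt, 533, 568 and 616 in S1pr2 null, 576, 813 and 656 in control and 82.1, 77.1 and 73.1 in JTE. Cx3cr1, a chemokine receptor, held 328, 288 and 285 in wt, 271, 332 and 352 in S1pr2 null, 404, 489 and 378 in control and 43.8, 33.8 and 17.3 in JTE. Fcrls, a marker of tissue macrophages (chromosome 3, 87250758 to 87263738), held 218, 156 and 205 in wt, 169, 175 and 201 in S1pr2 null, 252, 193 and 219 in control and 4.38, 5.28 and 1.92 in JTE. Fresh groups overlapped for all 3 genes and cultured groups lay far apart, with interactions of −3.12 ± 0.17, −3.85 ± 0.26 and −5.73 ± 0.32. The summed normalised count of the list was 3899 to 4113 in wt, 4185 to 4555 in S1pr2 null, 9072 to 9608 in control and 3076 to 3851 in JTE. C1qc, a complement chain, had an interaction of −1.91 ± 0.13. Fcrls is not one of the 16, and among these the lowest mean in JTE was that of Cx3cr1, at 31.6 ± 13.4 (SD, n = 3). The part of macrophage content in other falls, such as those of Mrc1 and Plau, was not tested.

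Genes of vessels, muscle and the surface layer were lower with JTE as well. Of 17 endothelial genes 11 fell and 2 rose with JTE and 3 rose and 1 fell with the genotype, and the interaction was lower for 8. Gja5, an arterial connexin, held 221, 199 and 269.6 in wt, 222, 271 and 317 in S1pr2 null, 196, 135 and 353 in control and 13.1, 6.34 and 8.66 in JTE, an interaction of −4.83 ± 0.51 (edgeR adjusted p = 5.7e-06). Clca3a1, an endothelial surface protein, held 411, 554 and 495 in wt, 297, 365 and 422 in S1pr2 null, 1128, 1119.6 and 815 in control and 87.6, 118 and 70.2 in JTE. Both were JTE-specific, and 13.2% of the 50-base words of Gja5 and 24.1% of those of Clca3a1 occur in other genes. The angiopoietin receptor Tek and the VEGF receptor Flt1 had interactions of −1.83 ± 0.25 and −1.34 ± 0.17, with summed list levels of 10291 to 12384 in control and 8199 to 9069 in JTE. Tie1 was opposite and the adhesion gene Esam JTE-specific, with interactions of −0.79 ± 0.09 and −0.79 ± 0.11. Of 16 smooth muscle genes 11 fell with JTE, while 3 rose and 1 fell in the genotype arm. Tpm1 and Flna, of the actin network, were opposite, with interactions of −0.93 ± 0.08 and −0.82 ± 0.10, and Myl9 and Tagln had interactions of −1.82 ± 0.21 and −1.67 ± 0.19. Of 10 mesothelial genes 8 fell with JTE and 2 with the genotype, and the interaction was lower for 6. Lrrn4, Upk3b, Upk1b and Rspo1 were JTE-specific, with interactions of −2.58 ± 0.36, −1.62 ± 0.18, −1.76 ± 0.36 and −1.26 ± 0.21.

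Of 26 interferon-stimulated genes 22 fell and 1 rose with JTE, but the interaction was lower for only 4 of them. Their median in the JTE arm was −2.45, and −1.14 without control 1. The summed normalised count of the list was 19150 in control 1, against 4790 and 6235 in control 2 and 3 and 3302 to 5414 in JTE. Isg15, a ubiquitin-like protein, held 13.96, 20.8 and 14.6 in wt, 10.1, 5.72 and 11.3 in S1pr2 null, 1265, 111 and 193 in control and 44.9, 43.3 and 113 in JTE, so that control 1 stood far above control 2 and 3. Its interaction of −2.10 had a 95% interval of −5.998 to 1.80. Ifit2, Ddx58 and Rsad2 were the JTE-specific members, with interactions of −1.49 ± 0.36, −1.13 ± 0.29 and −2.66 ± 0.82. Xaf1 was opposite, with 13.96, 18.8 and 18.4 in wt, 79.1, 59.2 and 63.5 in S1pr2 null, 306, 64.5 and 95.9 in control and 21.9, 17.96 and 66.4 in JTE, and its cultured groups overlapped. Immediate early genes fell with JTE in 14 of 20 cases and rose in 3, while 3 rose and 2 fell in the genotype arm. Jun and Fosl2, subunits of AP-1, were opposite, at −0.97 ± 0.07 and −0.73 ± 0.06 with JTE and 0.29 ± 0.07 and 0.32 ± 0.06 with the genotype. Klf6 was JTE-specific and lower, at −0.42 ± 0.05. Atf3 of this list is also counted among the ATF4 targets above.

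Lipid synthesis genes had more calls in the JTE arm than in the genotype arm, as did all genes tested. Of 24 cholesterol genes 10 fell with JTE, beside 26.4% of all genes that fell and 26.2% that rose. In the genotype arm 1 rose, and 5 had a lower interaction, beside 21.8% of all genes. The summed normalised count of the list was 39913 to 48245 in control and 44050, 43773 and 25894 in JTE, so that only JTE 3 lay below control, and the median in the JTE arm was −0.26, and −0.12 without JTE 3. Pmvk and Nsdhl, steps early and late in the pathway, had interactions of −0.73 ± 0.14 and −0.94 ± 0.26, and Hmgcs1 and Hsd17b7 had ones of −0.73 ± 0.25 and −0.70 ± 0.17. Scd1, a fatty acid desaturase, held 1822, 2041 and 1315 in control and 935, 938 and 509 in JTE, an interaction of −1.21 ± 0.37. Among 29 glycolysis and hypoxia genes 8 rose and 10 fell with JTE, and 6 rose and 8 fell in the genotype arm. Over all genes 26.2% rose and 26.4% fell with JTE, and 13.1% rose and 13.7% fell in the genotype arm. Pfkp, Ndrg1 and P4ha2 were opposite and higher with JTE, with interactions of 1.72 ± 0.19, 1.53 ± 0.14 and 1.38 ± 0.13, and Vegfa was JTE-specific and higher, at 1.20 ± 0.14. Hk1, a hexokinase, was shared, with an interaction of 0.96 ± 0.08.

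The remaining lists held smaller groups. Of 13 fatty acid synthesis genes 5 fell and 3 rose with JTE and 2 fell with the genotype, and Acly, Fads2 and Elovl1 had interactions of −0.54 ± 0.10, −0.66 ± 0.16 and 0.35 ± 0.08. Of 20 p53 targets 8 rose and 6 fell with JTE and 1 rose and 7 fell with the genotype. The cell cycle inhibitor Cdkn1a and the targets Ccng1 and Bax were opposite and higher with JTE, with interactions of 0.69 ± 0.12, 0.68 ± 0.12 and 0.33 ± 0.07. Gdf15, a stress-induced cytokine, and Sesn1, a stress-induced sestrin, were JTE-specific, with interactions of 3.62 ± 0.56 and −0.55 ± 0.09. Gdf15 is also counted among the ATF4 targets above, so it is not a separate result. Pmaip1, which promotes cell death, was JTE-specific and fell with JTE, at −2.12 ± 0.20. Of 12 gut and liver genes 8 fell with JTE and 4 with the genotype. Vil1 and Afp were shared, with interactions of −1.70 ± 0.22 and −1.33 ± 0.24, and Fgb was JTE-specific, at −1.56 ± 0.38. Gkn3, a stomach gene, went from 74, 26 and 77 reads in control to 0, 0 and 1 in JTE, too few in JTE for a fold. Of 17 neural crest and neuron genes 2 rose and 4 fell with JTE and 3 fell with the genotype, among them Ret, a receptor kinase, at −0.89 ± 0.12. Over all genes these shares were 26.2%, 26.4% and 13.7%, in that order. Fabp7, Erbb3 and Th had interactions of −1.33 ± 0.22, −0.45 ± 0.08 and −1.20 ± 0.32.

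Red cell genes differed between the fresh groups. Embryonic globins rose in the libraries labelled S1pr2 null, Hba-x at 1.01 ± 0.16 and Hbb-bh1 at 2.15 ± 0.20, whereas adult Hbb-bs and Hbb-bt fell, at −1.003 ± 0.13 and −1.01 ± 0.12. The summed normalised count of the list was 18197 to 20851 in wt, 19445 to 26032 in S1pr2 null, 2206 to 2599.8 in control and 1638 to 1992 in JTE. The part of this difference in the other genotype values was not tested. Epb42 and Tfrc, of red cell precursors, were shared and lower, with interactions of −2.19 ± 0.40 and −0.35 ± 0.09. Globin genes share long runs of sequence, which makes single members uncertain.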

How the data were processed

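The 12 libraries were poly(A) RNA-Seq libraries made with a strand-specific kit and read single-end. The authors aligned reads to mm10 with GSNAP and counted uniquely aligned reads per Ensembl 69 gene with featureCounts 1.4.6, and the deposited values are raw counts. Whether strand was used in counting is not given in the sources used here.

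Counts were tested with edgeR 4.0.16 (R 4.3.3): TMM scaling, filterByExpr, a quasi-likelihood fit of 4 groups without covariates, and Benjamini-Hochberg adjustment over 16122 genes. SE follows from the test statistic. The fit was tested on simulated data. DESeq2 1.42.0, other scalings and filters, each library left out, a replicate block and the Y-linked share as a covariate were alternatives.

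The named genes were the 5 protein-coding genes of largest interaction (for shared genes, of largest smaller arm change) in each class and direction, given a mean above 100 normalised counts in each arm and no overlap in the called arms, the 4 members of each described list with the smallest interaction p, and genes the study discusses. A few of these are counted in the list totals but not reported here. The members and lists were chosen with earlier results of these data known. Pools are not stated to come from separate litters, so p-values measure the spread between these libraries. Promoter and transcript sequences came from RefSeq and GENCODE M21.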

Additional observations from a re-analysis of the deposited data

Results flagged for a closer look

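Results are listed here because a test of the difference between the arms passed the threshold (edgeR adjusted p below 0.05). It did so for 7047 of 16122 genes. Opposite genes that were higher with JTE had interactions (log2) of 4.22 for Mt1, 4.22 for Mt2, 3.32 for Nupr1, 3.22 for Reep6 and 3.05 for Slc1a5. Opposite genes that were lower with JTE had interactions of −3.83 for Pcp4l1, −3.35 for Plau, −3.35 for Col9a1, −2.87 for Mrc1 and −2.61 for Dab2. Of the 1360 shared genes 357 also had a called interaction. Among the 5 named shared genes that rose only Rragd did, at 0.436, and among the 5 that fell only Ins2, at 0.957. JTE-specific genes that rose had interactions of 3.39 for Ddit3, 3.22 for Aldh1l2, 2.93 for Atf5, 2.81 for Cth and 2.42 for Vldlr. JTE-specific genes that fell had interactions of −5.73 for Fcrls, −4.83 for Gja5, −3.85 for Cx3cr1, −3.12 for Csf1r and −3.05 for Clca3a1. Genes that rose with the genotype and not with JTE had interactions of −1.67 for 6330403K07Rik, −1.63 for Kif26b, −1.59 for Frem1, −1.43 for Fam129c and −1.25 for Tlx1. Genes that fell with the genotype and not with JTE had interactions of 3.55 for Sst, 2.93 for Adora1, 2.89 for Ctrb1, 2.8 for Cela3b and 2.41 for Pnliprp1. Agent, allele, culture and part of the organ cannot be told apart in these differences.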

How the results depend on the processing

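The counts of calls kept within 1.5 times of the values above under other scalings, filters, tools and sample choices, except as follows. With each library left out in turn, or control 3 and JTE 3 together, the genotype arm had 2849 to 5340 calls and the opposite class 746 to 1414, and in both the lowest count was that without wt 2. The study's stricter criterion asks for an adjusted p of at most 0.1 and a mean above 100 normalised counts. It also asks for a fold change below 0.6 or above 1.6, in protein-coding genes only. Under it the interaction had 1904 calls, the JTE arm 1367 and the genotype arm 493. The opposite, shared, JTE-specific and genotype-specific classes held 36, 89, 910 and 246. The cause is the added limits of fold, level and gene type, whose shares were not separated. Of 2716 values of named genes under alternatives 2660 kept their direction and side of the threshold, 56 kept the direction and lost the call, and the lost calls were in Plau, Pcp4l1, Neurog3, Cela3b and Cdk6 and, under the study's criterion only, Col9a1, Mrc1, Dab2, S1pr3, Lpar1, Yap1 and Krt19. Neurog3 also lost its genotype call with DESeq2.

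Replicate numbers did not pair the samples throughout: of 18 pairs with the same number 4 had a correlation of deviations above 0.1, over a range of −0.292 to 0.443. These 18 include pairs across the arms. Between control and JTE the same-number values were −0.0538, 0.303 and 0.443 for replicates 1, 2 and 3. Those of different numbers ran from −0.428 to 0.337. Whether control 3 and JTE 3 shared a batch was not tested. With the replicate block the interaction had 7107 calls, the JTE arm 8511, the genotype arm 4381 and the opposite class 1164. The median of the mesenchyme list in the JTE arm was near 0 and changed sign among the alternatives.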

Other observations

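The ribosomal protein gene Rps3a1 and its copies, chosen after their values were seen, split fresh from cultured libraries. Rps3a1 held 2278, 2257 and 2318 normalised counts in wt, 1976, 1811 and 2010.4 in S1pr2 null, 43.9, 39.5 and 33.4 in control and 56.9, 59.2 and 44.3 in JTE. The processed pseudogene Rps3a3 held 280.1, 290.1 and 321 in wt, 819, 942 and 263 in S1pr2 null, 3654, 3657 and 3257 in control and 3918, 3898 and 3739 in JTE. Of the 50-base words of Rps3a1 71.0% occur in other genes, and of those of Rps3a3 65.1%, so the counts of each are uncertain.

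Of the 53 tested genes within 1000 kb of S1pr2 on chromosome 9, S1pr2 included, 22 were called in the genotype arm, which is 41.5%. This share counts both directions, so its background is the sum of the 13.1% higher and the 13.7% lower among all genes. S1pr2 itself and Col5a3 are among the 22 called genes, and Col5a3 had the genotype value −2.24 ± 0.18 given above.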
